A study of Rattus norvegicus with 12 samples.

Results

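The transcription factors of epithelial cells followed here in rat cervix were Tp63, Bcl11b, Ovol1, Grhl3, Grhl2, Klf5, Elf3, Ehf, Sox9 and Foxa1. They were chosen as every array probe that carries one of these 10 gene names, which gave 16 probes out of 30367, and 10 of 26554 gene names. Of these genes 6 had 2 probes each, and 4 had 1. The study asked how gene expression in the cervix, and in its macrophages (Mφ), differs shortly before birth. Sprague Dawley rats were killed on day 21 after breeding (D21) or as nonpregnant animals in proestrus (NP), and 3 rats made up each of 4 groups. In all groups the cervix was flushed with saline, minced and dispersed with collagenase. For whole cervix these cells were used directly, from D21 rats 5, 6 and 7 and NP rats 8, 9 and 10. For Mφ-depleted cervix, cells that bound the ED1 antibody were held back on magnetic beads and the remaining suspension was used, from D21 rats 1, 2 and 4 and NP rats 5, 6 and 7. Each group held different animals, and only the depleted groups went through the bead step, so loss of Mφ and the handling itself cannot be told apart. The RNA of each rat was hybridised to 1 array.

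The cervical canal is lined by columnar, mucus-making epithelium on the uterine side and by stratified squamous epithelium on the vaginal side. Tp63 (p63) is the master regulator of the basal layer of squamous epithelium, Bcl11b is a zinc finger factor of squamous epithelium that is best known in T cells, and Ovol1 and Grhl3 act as squamous cells leave the basal layer and build a barrier. Grhl2 and Klf5 work in most epithelia, Grhl2 by keeping up genes of cell junctions and Klf5 in proliferating cells. Elf3 and Ehf are ETS factors of simple, glandular and squamous epithelium. Sox9 marks ducts, glands and progenitor cells and is also the master regulator of cartilage, and Foxa1 is a pioneer factor of glandular epithelium.

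Levels are given as log2 of the probe's intensity over the 75th percentile of all probes on its array, so that 0 is a bright probe and each unit is a doubling. Levels of different probes were not compared, because probes differ in brightness for reasons of sequence. A probe was called well above background by the scanner software on each array, and 9 of the 16 probes, for 7 genes, passed on all 12 arrays. The 75th percentile itself ran from 289.8 to 1170.6 intensity units, and 44.9% to 61.7% of probes were well above background. The arrays lay on 4 slides read on 3 scan days. The D21 depleted array of rat 1 was alone on its slide and its day, D21 whole and D21 depleted arrays shared no slide, and both are returned to beside the results that they touch. The only other array on the slide of the D21 whole arrays was that of NP whole rat 10. In fits with slide as a block, D21 differences to depleted cervix and interactions therefore hang on this rat. All whole arrays were read on scan day 3, and of the depleted arrays only D21 rat 4 and NP rat 7. The arrays of days 1 and 2 were all depleted, with 60.2% to 61.7% of probes well above background, against 44.9% to 58.9% on day 3. Depletion thus cannot be fully told apart from scan day at either stage. The D21 depleted array of rat 4 stood apart from those of rats 1 and 2, and without it the probes called between D21 whole and depleted cervix went from 1788 to 2831 higher and from 1186 to 2606 lower. Rat 4 was also the only D21 depleted array read on the day of the D21 whole arrays, so without it these groups share no scan day. Results that turn on this rat are given without it too.

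The probes themselves show that a gene name can stand for different stretches of a transcript. Positions are on the rat build of the array, rn4, and all 16 probes are 60 bases long, also where their coordinates span another length. Which exon or intron each one meets was not analysed here. The genes with probes that differed in their readings are shown first, with the repeats of CAG and a start codon in capitals. One Tp63 probe, here the variant 3 probe, lies at chr11:76923148-76923207 on the minus strand and carries 6 CAG repeats. The other, the variant 1 probe, lies 22492 bases downstream at chr11:76900656-76900714, and its first 30 bases are shown.

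Tp63 variant 3 probe: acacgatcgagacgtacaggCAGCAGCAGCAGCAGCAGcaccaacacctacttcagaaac

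Tp63 variant 1 probe: gttatgggctatggtgagcctgaggcaaat

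The Sox9 probes lie at chr10:102388891-102388950, the CAG probe, and at chr10:102393822-102393881, the start-codon probe, both on the plus strand. The probe that opens with ATG is thus placed 4931 bases downstream of the other, and whether rn4 orders the 2 correctly was not tested. A run of 3 CAG repeats was found in 106 of all 30367 probes on either strand, or 0.349%, and 2 of these 106 belonged to Tp63 and Sox9.

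Sox9 CAG probe: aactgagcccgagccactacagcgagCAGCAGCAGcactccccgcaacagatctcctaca

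Sox9 start-codon probe: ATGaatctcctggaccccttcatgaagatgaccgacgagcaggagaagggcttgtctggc

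Both Grhl2 probes are on the plus strand. The upstream one is at chr7:72869733-72869792, and the downstream one, 2466 bases further on, is at chr7:72872199-72872258 and is shown by its first 30 bases.

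Grhl2 upstream probe: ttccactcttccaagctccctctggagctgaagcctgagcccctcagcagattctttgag

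Grhl2 downstream probe: gggagactcgtgtgtataatctgctcccac

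Among the remaining members, the Ovol1 probes are at chr1:208194944-208195003 (upstream) and chr1:208192952-208193011 (downstream) on the minus strand. The Klf5 probes are at chr15:83118108-83118167, spotted 10 times on each array with an SD between spots of 0.079 to 0.23, and at chr15:83106653-83107797, where the span of 1145 bases takes in sequence that the 60-base probe skips. Single probes stood for Bcl11b (chr6:132294349-132294408), Grhl3 (chr5:154312655-154312714), Elf3 (chr13:48258894-48258953) and Ehf (chr3:88518960-88519019). Foxa1 had probes at chr6:78005464-78005523 and chr6:77976521-77976580.

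**Figure D1:**
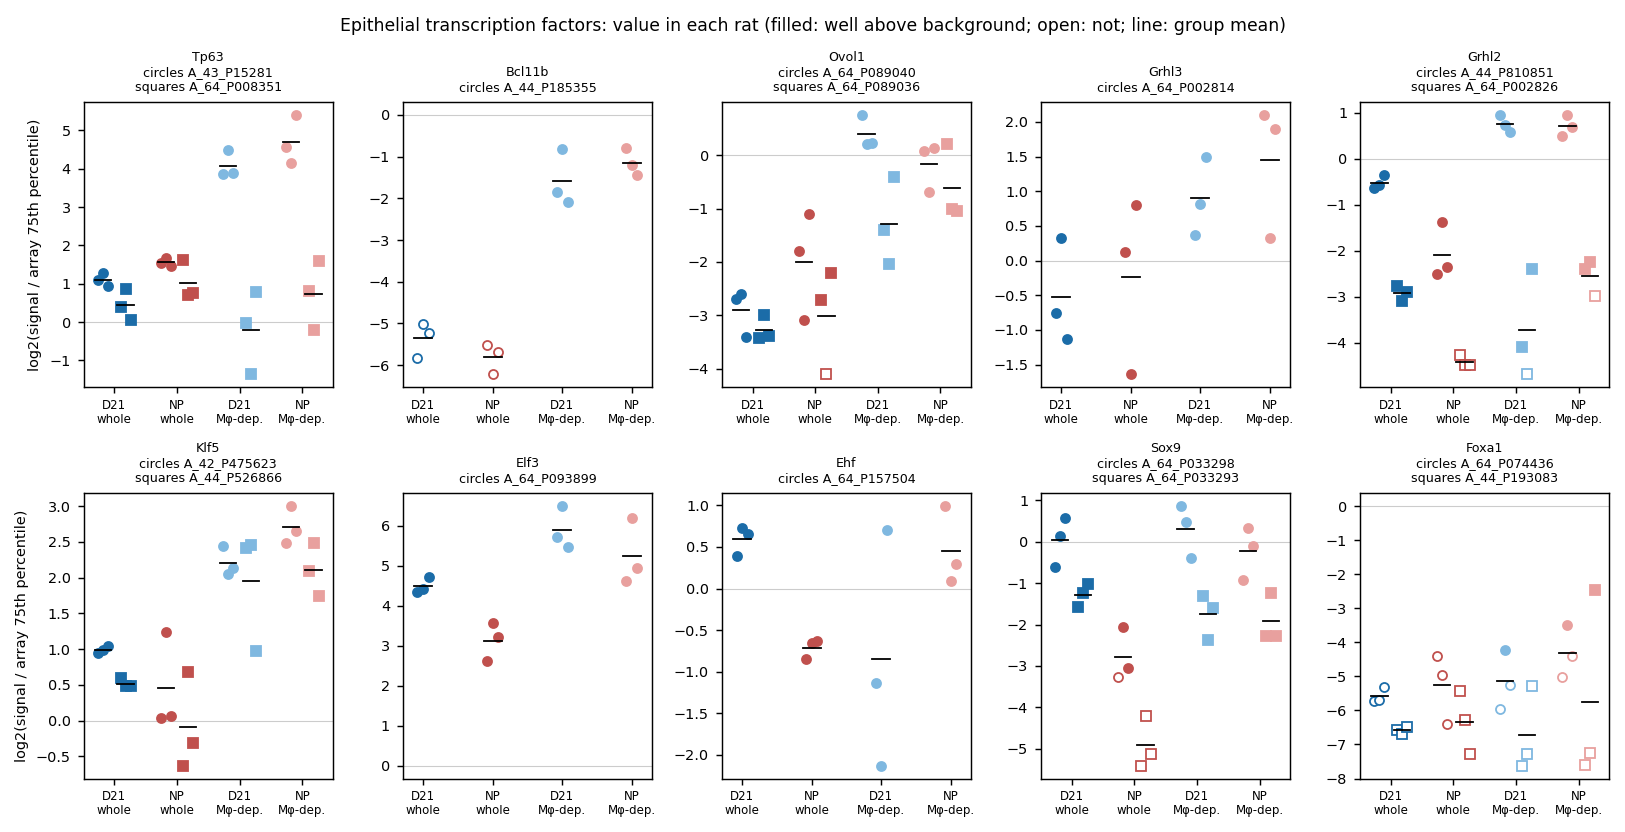
Level of each probe of the 10 genes in each of the 12 rats, on a log2 scale where 0 is the 75th percentile of the array, with 1 panel per gene, 1 column per group and a bar at the group mean. Circles are the brighter probe of a gene and squares the other. Filled points were well above background and open points were not. The variant 1 probe of Tp63 read 0.94 to 1.68 in whole cervix and 3.87 to 5.40 after depletion, while the Sox9 start-codon probe stands apart in NP whole cervix, where it was on no array well above background.

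Differences were tested probe by probe with limma over all 12 arrays, and called where the unadjusted p was below 0.01 and the difference at least 2-fold, the thresholds of the study's methods. Adjusted p-values are Benjamini-Hochberg values over all probes tested in a comparison. These p-values rest on the spread between individual rats, and 3 against 3 could reach no exact permutation p below 0.1 from its 10 splits. Some probes entered a comparison only because one of its groups was bright enough, which by itself favours a difference, so the counts below describe the members and support nothing further. The p-values of such probes share this limit.

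Between D21 and NP whole cervix, 13 probes of 8 genes were tested. Of these, 5 probes of Sox9, Grhl2 and Elf3 were called higher at D21 and 0 lower, against 5.64% of all probes called higher and 2.87% lower. At an adjusted p below 0.05, 3 of them were called, 2 of Sox9 and 1 of Grhl2, all higher, against 4.02% higher and 1.77% lower among all probes. The groups did not overlap for 6 probes higher at D21 and 1 lower, against 21.1% and 23.5%. The 5 calls became 3 without D21 depleted rat 1, NP whole rat 8 or 10, or any D21 whole rat. Between whole and Mφ-depleted cervix at D21, 14 probes of 9 genes were tested, and 8 probes of 6 genes were called lower in whole cervix and 0 higher, against 7.31% lower and 11.0% higher among all probes. The groups did not overlap for 9 probes lower in whole cervix and 0 higher, against 22.0% and 22.6%. The 8 calls became 5 without D21 depleted rat 1 or D21 whole rat 5 or 7, and 2 probes, of Ehf and Grhl2, were called higher without D21 depleted rat 4. The same comparison in NP rats tested 13 probes of 9 genes and called 10 probes of 7 genes lower in whole cervix and 0 higher, against 10.5% and 13.5%, and did not overlap for 11 lower and 0 higher, against 23.6% and 23.2%. Between D21 and NP depleted cervix, 0 of 13 probes were called by limma, against 5.28% higher and 2.13% lower among all probes, and 0 at an adjusted p below 0.05, against 3.34% and 0.885%. The groups did not overlap for 1 probe higher at D21, of Ovol1, and 1 lower, of Klf5, against 9.30% and 7.37%. There 1 probe, of Ehf, had an unadjusted p below 0.05. The methods' t-test after adjustment called 0 of all 15144 probes in this comparison, so its result for the members was fixed. The 4 comparisons share groups, so their values are not independent.

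**Figure D2:**
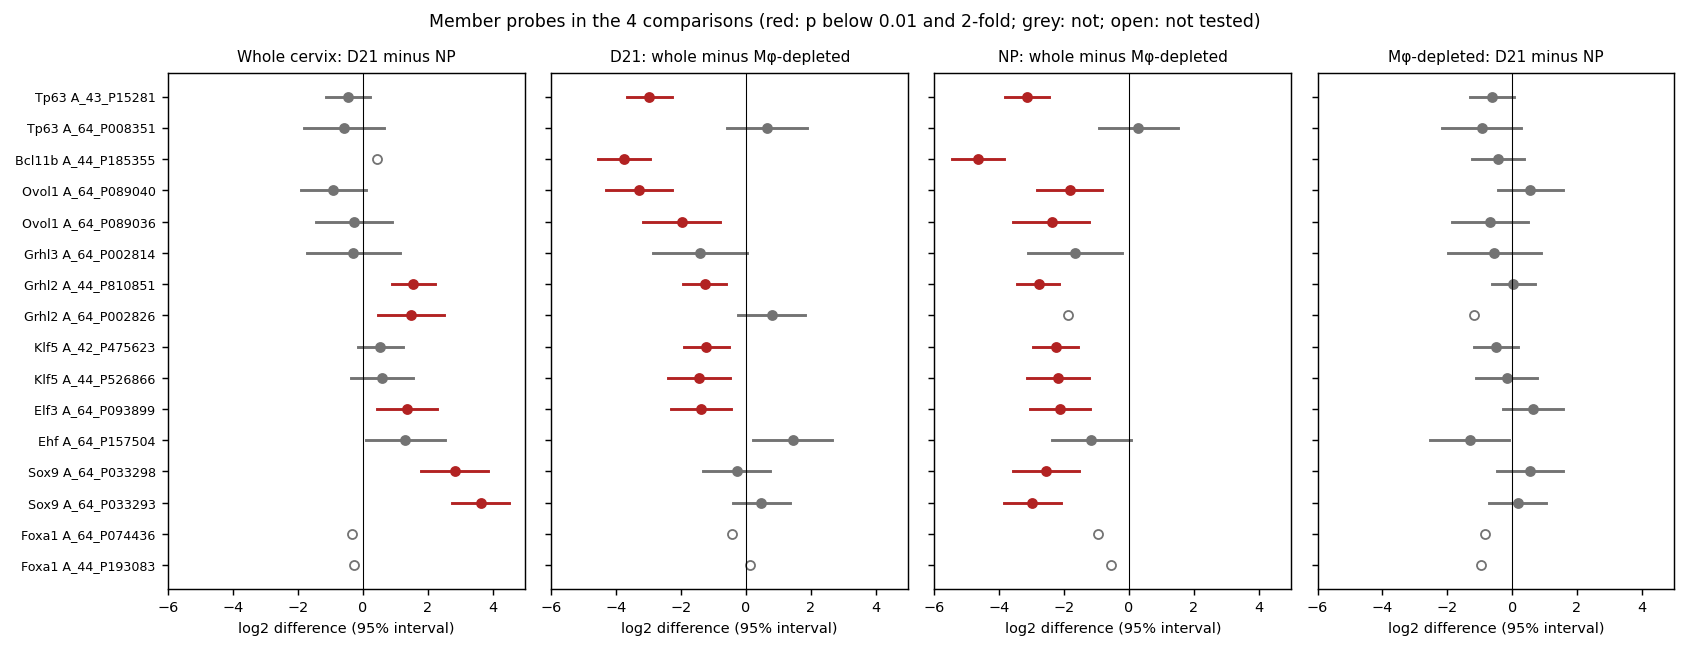
Log2 difference of each probe in the 4 comparisons, with the 95% confidence interval from limma for probes tested. Red marks calls at p below 0.01 and 2-fold, grey marks probes tested but not called, and open points were not tested. Sox9, Grhl2 and Elf3 lie to the right in D21 against NP whole cervix, and most probes lie to the left, lower in whole than in depleted cervix, in both depletion comparisons.

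Of the squamous factors, Tp63 was 7.87-fold lower in whole than in depleted cervix at D21 and 8.84-fold lower in NP rats by its variant 1 probe. This probe read 1.09, 1.29 and 0.94 in D21 whole cervix of rats 5, 6 and 7, and 3.87, 4.49 and 3.88 in D21 depleted cervix of rats 1, 2 and 4. It read 1.55, 1.68 and 1.47 in NP whole cervix of rats 8, 9 and 10, and 4.57, 4.15 and 5.40 in NP depleted cervix of rats 5, 6 and 7. All 6 depleted rats thus lay above all 6 whole rats. The differences were -2.98 ± 0.32 (SE, n = 3 per group, limma adjusted p = 1.9e-04) at D21 and -3.14 ± 0.31 (adjusted p = 3.0e-05) in NP rats. The methods' t-test did not call the NP difference. Between D21 and NP whole cervix this probe differed by -0.46 ± 0.31 (adjusted p = 0.416), not called although the groups did not overlap.

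The variant 3 probe of Tp63 gave another picture. It read 0.40, 0.85 and 0.05 in D21 whole and -0.03, -1.36 and 0.78 in D21 depleted cervix, and the groups overlapped. In NP rats it read 1.62, 0.70 and 0.75 in whole and 0.80, -0.20 and 1.6 in depleted cervix, again overlapping. The differences of 0.64 (95% interval -0.59 to 1.87, adjusted p = 0.419) at D21 and 0.29 (-0.94 to 1.51, adjusted p = 0.727) in NP rats have intervals that leave out those of the variant 1 probe, although both probes were well above background on all 12 arrays. The variant 1 probe is annotated to 4 RefSeq mRNAs of Tp63 and the variant 3 probe to 2, and what set the readings apart was not tested.

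Bcl11b was not well above background on any of the 6 whole cervix arrays and was so on all 6 depleted arrays. It read -5.82, -5.01 and -5.22 in D21 whole against -1.85, -0.82 and -2.10 in D21 depleted cervix, at least 6.34-fold lower in whole cervix (difference -3.76 ± 0.37, adjusted p = 1.2e-04). It read -5.51, -6.22 and -5.68 in NP whole against -0.79, -1.20 and -1.45 in NP depleted cervix, at least 7.35-fold lower (-4.66 ± 0.37, adjusted p = 6.0e-06). Bounds were taken because a level below background is an upper limit. Bcl11b entered both comparisons through the depleted groups alone, so its p-values are fitted to such limits and support no difference by themselves. With background correction by normexp the D21 difference shrank to -1.30 and lost its call, and the NP difference shrank to -1.72 and kept it. Both are smaller than the bounds given, which hold only for the scanner software's background subtraction. Of 12 T and NK cell genes, Cd3e and Cd5 were on none of the 12 arrays well above background, and Cd3g was so on 2 or 3 arrays of each group. The 7 usable genes of that list averaged -2.75 to -2.57 in D21 whole and -2.36 to -1.98 in NP whole cervix, and -3.93 to -3.30 and -3.48 to -3.26 after depletion. Their part in the Bcl11b levels was not tested.

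Ovol1 was lower in whole cervix by both probes at both stages. The downstream probe read -2.70, -2.60 and -3.41 in D21 whole and 0.75, 0.21 and 0.23 in D21 depleted cervix, 9.81-fold apart (-3.29 ± 0.46, adjusted p = 0.00105). It read -1.79, -3.09 and -1.10 in NP whole and 0.08, -0.70 and 0.14 in NP depleted cervix, 3.56-fold apart (-1.83 ± 0.46, adjusted p = 0.0104). The groups did not overlap at either stage. The upstream probe was 3.96-fold lower in whole cervix at D21 (-1.98 ± 0.54, adjusted p = 0.0254) and 5.25-fold lower in NP rats (-2.39 ± 0.54, adjusted p = 0.00582). The D21 call of the upstream probe was lost without D21 depleted rat 4 (-1.55), D21 whole rat 5 (-1.90) or D21 whole rat 7 (-1.93), and with slide (-3.41) or scan day (-2.20) as a block, fits from which D21 depleted rat 1 drops out. With normexp the D21 call of the upstream probe (-0.72) and the NP calls of the downstream (-1.20) and upstream (-1.34) probes were lost. The D21 calls of Tp63, Bcl11b and downstream Ovol1 kept the unadjusted call with either block. For slide they were at -3.10, -3.67 and -4.59, where their adjusted p rose to 0.121, 0.0725 and 0.0698 by limma. The slide fit ties the D21 whole arrays to the depleted ones only through NP whole rat 10, so it is a weak check.

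Grhl3 was called in no comparison. It read -0.76, 0.33 and -1.13 in D21 whole, 0.37, 0.82 and 1.50 in D21 depleted, 0.13, -1.64 and 0.80 in NP whole, and 2.10, 0.33 and 1.90 in NP depleted cervix. Its widest range within a group was in NP whole cervix, from rat 9 at -1.64 to rat 10 at 0.80. Whole minus depleted cervix was -1.42 ± 0.66 (adjusted p = 0.133) at D21 and -1.68 ± 0.66 (adjusted p = 0.0724) in NP rats. In NP rats the difference passed the call without depleted rat 6 (-2.24) or without whole rat 10 (-2.20).

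The spread of Grhl3 between rats followed the suprabasal keratins and cornified envelope genes. This pattern was noticed in the values and is a description only. The mean of 9 suprabasal genes (Cnfn, Krt1, Krt10, Krt13, Krt4, Lor, Sbsn, Sprr1a and Tgm3) was -1.16, 0.01 and -1.37 in D21 whole rats 5, 6 and 7, and 3.07, -1.07 and 3.68 in NP whole rats 8, 9 and 10. It was -1.0, -0.47 and 1.33 in D21 depleted rats 1, 2 and 4, and 3.62, -0.24 and 3.13 in NP depleted rats 5, 6 and 7. Grhl3 put the 3 rats of each group in the same order as this mean in all 4 groups. The other 15 member probes did so in at most 2 groups, and among 16462 probes outside the list, each bright enough in 1 group or more, 62 (0.377%) did so in all 4. NP whole rat 9 and NP depleted rat 6 were the lowest of their groups in this mean, in Grhl3 and in the downstream Ovol1 probe. The part of these markers in the Grhl3 levels was not tested, and in bulk tissue fewer cells of a type and less RNA per cell cannot be told apart.

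Of the factors used by most epithelia, Grhl2 was higher at D21 than in NP whole cervix and lower in whole than in depleted cervix. Its downstream probe read -0.63, -0.58 and -0.36 in D21 whole and -2.51, -1.38 and -2.36 in NP whole cervix, which do not overlap. The difference was 2.95-fold (1.56 ± 0.30, adjusted p = 0.0153). In depleted cervix the probe read 0.95, 0.73 and 0.57 at D21 and 0.50, 0.94 and 0.68 in NP rats, close together (0.04 ± 0.29, adjusted p = 0.95). Whole cervix was 2.42-fold lower than depleted cervix at D21 (-1.27 ± 0.30, adjusted p = 0.0147) and 6.94-fold lower in NP rats (-2.79 ± 0.30, adjusted p = 4.4e-05). The D21 calls against depleted cervix rest on slides that hold no whole array of that stage, and with slide as a block, a fit from which D21 depleted rat 1 drops out, the difference was -0.71 and not called. It was not called with scan day as a block (-1.13) or with normexp (-0.87) either.

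The upstream Grhl2 probe was dim. It read -2.77, -3.10 and -2.90 in D21 whole cervix and was well above background on no NP whole array, at least 1.94-fold higher at D21 (1.49 ± 0.47, limma adjusted p = 0.0864). The call was lost on leaving out any of 9 rats in turn, at 1.41 to 1.58, and with slide as a block (1.55). With normexp this difference was 0.79, below the bound given, and not called. At D21 the upstream probe was 0.80 ± 0.47 higher in whole than in depleted cervix (adjusted p = 0.224), against the lower reading of the downstream probe, and the difference was -0.15 with normexp. Of the 3 D21 depleted arrays this probe was well above background on 2, and not on that of rat 2 (-4.68).

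Klf5 was lower in whole than in depleted cervix by both probes at both stages. The 10-spot probe read 0.95, 0.99 and 1.04 in D21 whole and 2.44, 2.05 and 2.14 in D21 depleted cervix (-1.22 ± 0.32, adjusted p = 0.022, 2.33-fold). It read 0.04, 1.24 and 0.07 in NP whole and 2.48, 3.00 and 2.65 in NP depleted cervix (-2.26 ± 0.31, adjusted p = 2.9e-04, 4.79-fold). No depleted rat fell into the range of the whole rats. The second probe gave -1.44 ± 0.43 at D21 (adjusted p = 0.0365, 2.71-fold) and -2.20 ± 0.43 in NP rats (adjusted p = 0.0027, 4.59-fold). NP whole rat 9 was above the other two NP whole rats by both probes. With slide as a block the D21 differences were -0.52 and -0.40, not called, as was the NP difference of the second probe (-1.46). The D21 differences were not called with scan day as a block (-1.10 and -0.73), with normexp (-0.97 and -1.06) or with the percentile over detected probes (-1.03 and -1.25), and both D21 calls were lost without D21 depleted rat 1 (-1.10 and -1.20). The D21 call of the second probe was also lost without D21 depleted rat 2 (-1.18) or any of the 3 D21 whole rats (-1.47 to -1.42).

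Of the ETS factors, Elf3 was on average highest in depleted cervix and lowest in NP whole cervix. It read 4.35, 4.42 and 4.73 in D21 whole and 2.61, 3.56 and 3.22 in NP whole cervix, 2.58-fold higher at D21 without overlap (1.37 ± 0.42, limma adjusted p = 0.0834). It read 5.71, 6.49 and 5.46 in D21 depleted and 4.62, 6.19 and 4.94 in NP depleted cervix. Whole cervix was 2.61-fold lower than depleted cervix at D21 (-1.39 ± 0.42, adjusted p = 0.0381) and 4.35-fold lower in NP rats (-2.12 ± 0.42, adjusted p = 0.00298). The D21 against NP call was lost without D21 depleted rat 1 (1.37), NP whole rat 8 (1.11) or 10 (1.41), or any D21 whole rat (1.25 to 1.45), and within the slide that held 3 D21 whole arrays and NP whole rat 10 the difference was 1.28 and not called. The D21 call against depleted cervix was lost without any of these D21 whole rats (-1.5 to -1.31), without NP whole rat 10 (-1.39), and without D21 depleted rat 1 (-1.47) or 2 (-1.08). With slide as a block the D21 (-1.24) and NP (-1.69) differences to depleted cervix were not called, and with normexp the D21 against NP (1.22) and D21 whole against depleted (-1.23) differences were not. The D21 difference to depleted cervix was not called with scan day as a block (-1.12) or with the percentile over detected probes (-1.20) either. Its call was kept under 5 of 13 alternatives.

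Ehf passed the call in none of the 4 comparisons, yet its differences pointed in opposite directions at the 2 stages. It read 0.39, 0.73 and 0.66 in D21 whole and -1.14, -2.13 and 0.71 in D21 depleted cervix (1.44 ± 0.56, adjusted p = 0.079). It read -0.85, -0.66 and -0.63 in NP whole and 0.99, 0.09 and 0.29 in NP depleted cervix (-1.17 ± 0.55, adjusted p = 0.13). The NP groups did not overlap, and the D21 groups overlapped through depleted rat 4 alone. Without that rat limma called whole above depleted cervix at D21 (2.23, adjusted p = 9.6e-04), below it in NP rats (-1.17, adjusted p = 0.0117), D21 above NP in whole cervix (1.31, adjusted p = 0.0251) and D21 below NP in depleted cervix (-2.09, adjusted p = 0.00342). With all rats D21 was above NP whole cervix without overlap (1.31 ± 0.56, adjusted p = 0.194). Rat 4 was the only D21 depleted array on the slide and day of whole arrays, and within that scan day the D21 difference was -0.12. The D21 whole and depleted arrays left without rat 4 shared no scan day.

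Of the columnar factors, Sox9 showed the largest D21 against NP difference among the members tested. Its CAG probe read -0.60, 0.13 and 0.58 in D21 whole and -3.27, -2.07 and -3.04 in NP whole cervix, 7.10-fold higher at D21 (2.83 ± 0.47, adjusted p = 0.00926). Its start-codon probe read -1.57, -1.24 and -1.03 in D21 whole and -5.41, -4.22 and -5.13 in NP whole cervix, where no array was well above background, so that D21 was at least 6.67-fold higher (3.64 ± 0.40, adjusted p = 0.00215). The groups did not overlap by either probe. By the CAG probe NP whole rat 8 was not well above background. The start-codon probe entered this comparison through the D21 group alone, so its p-value is fitted to NP signals that are upper limits. With normexp the differences shrank to 2.02 and 1.75, the second below the bound given, and both were called. Within the slide that held 3 D21 arrays and NP rat 10 the differences were 3.07 (limma adjusted p = 0.107) and 3.84 (adjusted p = 0.044). There the NP arm is 1 array, which is assumed to vary like the other groups.

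In depleted cervix Sox9 did not part the stages. The CAG probe read 0.86, 0.48 and -0.38 at D21 and -0.93, 0.34 and -0.10 in NP rats, and the start-codon probe -1.30, -2.37 and -1.59 against -2.27, -1.24 and -2.27. The differences were 0.55 (adjusted p = 0.51) and 0.17 (adjusted p = 0.833). Whole cervix was thus 5.90-fold lower than depleted cervix in NP rats by the CAG probe (-2.56 ± 0.47, adjusted p = 0.0017). By the start-codon probe it was at least 4.27-fold lower (-2.99 ± 0.40, adjusted p = 2.3e-04). With normexp the latter difference was -1.10, smaller than the bound given, and its call was lost. The start-codon probe entered this comparison through the depleted group alone. At D21 whole and depleted cervix differed by -0.28 (95% interval -1.31 to 0.74, adjusted p = 0.679) and 0.47 (-0.41 to 1.36, adjusted p = 0.402), and the groups overlapped. Of the cartilage genes, Acan and Matn3 were on none of the 12 arrays well above background and Col2a1 was on no whole array. Sox5 was the 1 cartilage gene tested, and was called in NP rats (2.49, higher in whole cervix) and between depleted D21 and NP (2.62), but not in D21 against NP whole cervix (-0.71) or D21 whole against depleted cervix (-0.84).

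Foxa1 could not be compared. Its first probe was well above background on the arrays of D21 depleted rat 2 (-4.21) and NP depleted rat 6 (-3.50) only, and its second on that of NP depleted rat 7 (-2.45) only. No group had 3 such arrays, so Foxa1 was tested in no comparison.

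**Figure D3:**
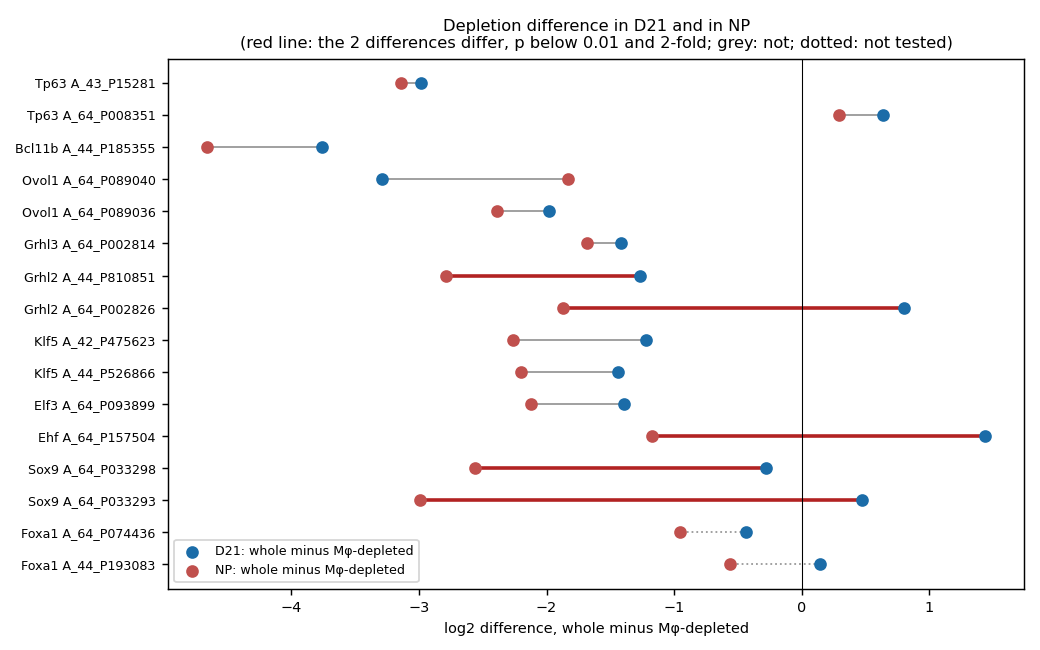
Whole minus Mφ-depleted log2 difference of each probe, 1 row per probe, with 1 point for D21 and 1 for NP rats joined by a line. Red lines mark interactions called at p below 0.01 and 2-fold, grey lines those not called and dotted lines those not tested. Among the widest gaps between NP and D21 are the Sox9 start-codon probe (-2.99 and 0.47), upstream Grhl2 (-1.87 and 0.80) and Ehf (-1.17 and 1.44). Bcl11b lies farthest to the left at both stages, at -4.66 and -3.76.

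Whether the difference with depletion itself changed between stages was tested as an interaction, D21 difference minus NP difference, for 14 probes. Of these, 5 probes of Sox9, Grhl2 and Ehf were called above 0 and 0 below, against 2.74% and 4.71% of all probes, and 2 or 3 without NP depleted rat 6 or 7, NP whole rat 8 or 10, or D21 whole rat 6 or 7. The Sox9 start-codon probe gave 3.47 ± 0.57 (adjusted p = 0.0127) and was the 1 member among the 0.513% of probes above 0 at an adjusted p below 0.05, with 0 members among the 1.83% below 0. With normexp it fell to 1.40 and lost its call (adjusted p = 0.395). The CAG probe gave 2.28 ± 0.66 (adjusted p = 0.102), Grhl2 gave 1.52 ± 0.42 downstream (adjusted p = 0.0884) and 2.67 ± 0.66 upstream (adjusted p = 0.0655), and Ehf gave 2.61 ± 0.79 (adjusted p = 0.112). For the start-codon and upstream Grhl2 probes no NP whole array was well above background, so that the NP term in these values is fitted to signals that are upper limits. The calls of the CAG probe, of downstream Grhl2 and of Ehf were each lost on leaving out several single rats. Upstream Grhl2 (0.49), the CAG probe (1.39) and downstream Grhl2 (1.21) lost their calls with normexp, while Ehf kept its call (2.29). For Tp63 by the variant 1 probe the interaction was 0.17 ± 0.45 (adjusted p = 0.859), for Klf5 1.04 ± 0.45 (10-spot probe, adjusted p = 0.235), for Elf3 0.73 ± 0.60 (adjusted p = 0.523) and for Ovol1 -1.46 ± 0.65 (downstream probe, adjusted p = 0.253).

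Levels of other epithelial genes also moved with the groups. The mean level of 12 genes of epithelial adhesion and polarity (such as Epcam, Cdh1 and Cldn7) was 2.46 to 2.69 in D21 whole, 1.28 to 1.74 in NP whole, 3.29 to 3.56 in D21 depleted and 2.92 to 3.39 in NP depleted cervix. It thus differed by 1.02 between D21 and NP whole cervix, by -0.87 between whole and depleted cervix at D21 and by -1.56 in NP rats. Taken relative to this mean in each rat, the Sox9 probes were 1.81 (CAG) and 2.62 (start codon) higher at D21 than in NP whole cervix, without overlap, the second against NP signals that were not well above background. Tp63 by the variant 1 probe was at -1.47 between D21 and NP whole cervix relative to the same mean, also without overlap, and at -2.10 and -1.58 between whole and depleted cervix at D21 and in NP rats. The variant 3 probe was at -1.61 between D21 and NP whole cervix, without overlap. Between whole and depleted cervix it went the other way, at 1.51 at D21, with overlap, and 1.85 in NP rats, without. Between D21 and NP whole cervix Elf3 was at 0.35 and downstream Grhl2 at 0.54 relative to the mean. Relative to the mean, Klf5 (10-spot probe) was at -0.35 and -0.70 and Elf3 at -0.51 and -0.56 between whole and depleted cervix at D21 and in NP rats, while Bcl11b was at -2.89 and -3.09. The Bcl11b values rest on whole cervix signals that were not well above background. These relative values carry no test.

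Lists of other genes place the members in the tissue. Of a list of other epithelial transcription factors, which also holds the splicing regulators Esrp1 and Esrp2, 8 of 15 tested rose at D21 in whole cervix and 0 fell. At an adjusted p below 0.05, 4 were higher, and the median difference of the list was 1.41 against -0.06 over all probes. Those that rose included Spdef, a factor of mucus-secreting cells (2.30 ± 0.60, adjusted p = 0.0488), and Ovol2 (1.67 ± 0.43, adjusted p = 0.0441). Between whole and depleted cervix 3 of 16 were lower in whole cervix at D21 and 9 of 15 in NP rats, with 0 higher, at medians of -0.48 and -1.73 against -0.02 over all probes at each stage. Tfap2a, a partner of p63 in squamous epithelium, fell in both (-1.54 ± 0.24, adjusted p = 0.00219, and -3.46 ± 0.24, adjusted p = 3.2e-06), and the splicing regulator Esrp1 was among those lower in NP rats (-2.26 ± 0.31, adjusted p = 2.5e-04). In depleted cervix 0 of 17 were called between stages, at a median of -0.08.

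Among 6 mesenchymal factors of the Zeb, Snai and Twist families, which hold epithelial genes down, the direction was the opposite. Of these, 5 were higher in whole than in depleted cervix in NP rats (Zeb1, Zeb2, Snai1, Twist1 and Twist2) and 2 at D21, with medians of 2.72 and 0.60. Twist2 differed most, by 5.71 ± 0.48 (adjusted p = 9.0e-06) in NP rats. Snai2 fell at D21 in whole cervix, and 4 of the 6 were higher at D21 than in NP depleted cervix.

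Genes of the squamous and columnar layers split. Of 13 basal squamous markers, 8 were lower in whole cervix at D21 and 9 in NP rats (medians -1.71 and -2.10), among them the hemidesmosome collagen Col17a1 (-3.02 ± 0.31, adjusted p = 1.6e-04, and -3.61 ± 0.31, adjusted p = 1.0e-05) and Krt5 (-2.10 ± 0.30, adjusted p = 0.00122, and -2.90 ± 0.30, adjusted p = 3.6e-05). In whole cervix 2 of the 13, Itgb4 and Fat2, rose at D21. Of the suprabasal markers Krt4 alone, of 6 tested, was called in whole cervix, lower at D21 (-3.38 ± 0.78, adjusted p = 0.031). It was also the 1 called of 9 in depleted cervix between stages (-3.93 ± 0.78, adjusted p = 0.0157) and of 9 in NP rats, lower in whole cervix (-2.65 ± 0.78, adjusted p = 0.0231), and 0 of 7 were called at D21. Of 12 columnar and secretory markers 9 rose at D21 in whole cervix at a median of 2.34, among them the mucin Muc5b (3.98 ± 0.73, adjusted p = 0.0131) and Gp2 (8.17 ± 1.41, adjusted p = 0.0104), which was well above background on 1 of the 3 NP whole arrays, and 0 of 12 were called between whole and depleted cervix at D21. In depleted cervix 4 columnar markers were higher at D21, and in NP rats 1 of 11 was higher and 1 lower in whole cervix. Of the 12 adhesion and polarity genes, 5 rose at D21 in whole cervix, with Cdh1 at 1.48 ± 0.22 (adjusted p = 0.00622). Between whole and depleted cervix 3 were lower and 1 higher at D21 and 9 were lower in NP rats, and 2 were higher at D21 in depleted cervix.

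**Figure D4:**
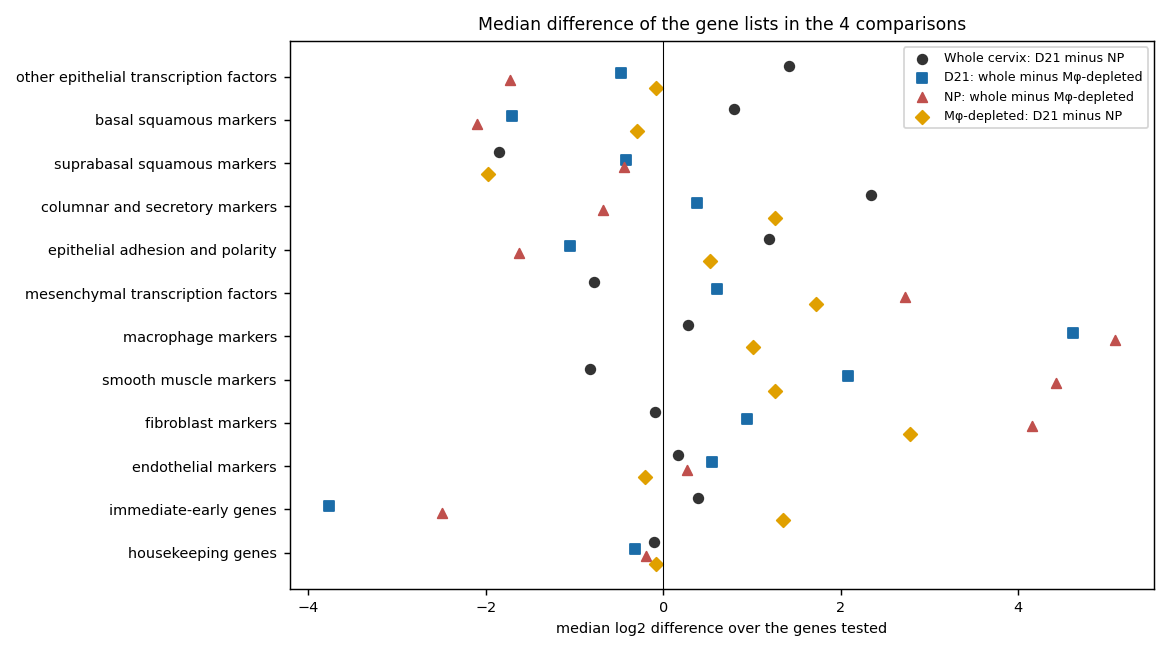
Median log2 difference over the tested genes of each of 12 gene lists in the 4 comparisons, with a vertical line at 0. Basal squamous markers lie at -1.71 and -2.10 in the depletion comparisons while macrophage, smooth muscle and fibroblast markers lie on the other side of 0, and columnar and secretory markers lie at 2.34 in D21 against NP whole cervix.

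Markers of other cells moved with the depletion comparisons as well, and their part in the members' differences was not tested. Of 12 macrophage markers, 10 were higher in whole cervix at D21 and 8 of 10 tested in NP rats (medians 4.62 and 5.09). Their mean was 1.68 to 1.78 in D21 whole and 1.05 to 1.49 in NP whole cervix, against -2.79 to -2.38 and -3.38 to -2.88 after depletion. Adgre1, a surface receptor typical of macrophages, was well above background on no depleted array and at least 36.6-fold higher in whole cervix at D21 and 39.6-fold in NP rats. Cd68, whose product the ED1 antibody binds, differed by -0.15 at D21 (adjusted p = 0.88) and 0.54 in NP rats (adjusted p = 0.532). In whole cervix 1 macrophage marker, Cd163, rose at D21, and in depleted cervix 1 of 6 tested did.

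Stromal genes were also higher in whole cervix. Of the fibroblast markers 3 of 10 were higher at D21 and 9 in NP rats (medians 0.94 and 4.15), among them Dcn, a collagen-binding proteoglycan (2.12 ± 0.25, adjusted p = 4.3e-04, and 4.63 ± 0.25, adjusted p = 1.1e-06). Between stages 1 of them rose at D21 in whole and 8 in depleted cervix. Of 9 smooth muscle markers tested 5 were higher in whole cervix at D21 and 9 in NP rats (medians 2.08 and 4.42), while 3 were lower at D21 in whole cervix and 5 of 8 were higher at D21 in depleted cervix. Endothelial markers gave 3 of 10 higher at D21 and 2 of 9 higher with 1 lower in NP rats, with 0 of 10 between whole groups and 1 in each direction between depleted groups. Of the T and NK cell markers 1 of 6 was higher in whole cervix at D21 and 1 of 4 in NP rats, Nkg7 in both, while 1 of 7 was higher and 2 lower at D21 in whole cervix and 1 of 3 higher in depleted cervix. Immediate-early genes, which cells induce within minutes of a stimulus, were lower in whole cervix in 10 of 10 tested at D21 and 8 of 8 in NP rats (medians -3.77 and -2.49). Between stages 1 of 7 of them was higher at D21 in whole and 6 of 10 in depleted cervix. Of 8 housekeeping genes 0 were called between stages, and their medians between whole and depleted cervix were -0.32 at D21 and -0.20 in NP rats.

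The probes whose profiles were most like those of Tp63 and Sox9 over the 12 arrays were found among 16471 probes by the root mean square difference of log2 levels after centring. For the variant 1 probe of Tp63 they were Ltb4r (0.38), a leukotriene B4 receptor, Col17a1 (0.42), Mycl (0.44), the basal keratin Krt5 (0.44) and the histone gene H4c14 (0.45). For the CAG probe of Sox9 they were Tmem30b (0.44), Lsr (0.47), a protein of tricellular junctions, Runx1 (0.47), Bspry (0.48) and Nhsl3 (0.52). Col17a1 and Krt5 also belong to the basal squamous list. These are likenesses of level over the same arrays and were given no test.

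Promoters of 4 members, Tp63, Grhl3, Elf3 and Klf5, were listed in RefSeq on build GRCr8. Grhl3 is shown because it held the most copies of CACCC, a core that factors of the KLF family, to which Klf5 belongs, can bind. The 250 bases before its start are chr5:153089891-153090140 on the minus strand, with CACCC in capitals.

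Grhl3 promoter: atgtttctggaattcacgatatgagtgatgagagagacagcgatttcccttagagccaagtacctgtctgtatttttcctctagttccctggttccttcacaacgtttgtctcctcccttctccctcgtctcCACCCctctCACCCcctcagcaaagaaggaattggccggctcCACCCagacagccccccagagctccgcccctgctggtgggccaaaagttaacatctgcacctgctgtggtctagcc

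On either strand CACCC was in all 4 of these promoters, with 3 copies in Grhl3, 2 in Klf5 and 1 each in Tp63 and Elf3, and in 49.2% of all 33469 promoters. GGGCGG was in Grhl3 alone of the 4 and in 30.5% of all, and TGANTCA, the AP-1 motif, was in 0 of 4 and 6.34% of all. None of these matches is a measured site.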

How the data were processed

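The authors hybridised Cy3-labelled RNA of 12 rats, 1 per array, to 1-colour Agilent rat arrays and read them with Feature Extraction 9.5.3.1 (array build rn4, per the file headers). The deposited scanner files give an intensity for each spot, background-subtracted and detrended but not normalized between arrays. Control spots and outlier spots were left out, spots of a probe were averaged, and each intensity was divided by the array's 75th percentile and put on the log2 scale. The authors also deposited a table of ratios to that percentile, of which 99% or more per array lay within 0.01 or 1% of these values and which served as an alternative. Probes well above background on all 3 arrays of a group compared were tested with limma 3.58.1 (R 4.3.3) in 1 model of 4 groups, which was tested on simulated data. Calls needed p below 0.01 and a 2-fold difference, and Benjamini-Hochberg values below 0.05 are given beside them. Where no array of a group was well above background, a fold is a bound against the lowest signal well above background. Such a bound holds for the scanner software's background subtraction, and differences with normexp could be smaller. Groups came from the labels. Every member probe was named, and of 14 gene lists at most 4 called genes without overlap between groups, and 5 genes most like Tp63 and Sox9. Members and lists were chosen with earlier results of these data known. Of 30367 probes 17328 (57.1%) were matched to RefSeq by accession. The number of arrays, not read depth, limits precision. Alternatives were another background correction, normalization, filter, test, probe choice, slide or scan day as a block, values within a slide or day, and leaving out each rat.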

Additional observations from a re-analysis of the deposited data

Results flagged for a closer look

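The difference between whole and Mφ-depleted cervix itself differed between D21 and NP rats for 5 probes by the interaction test of limma (p below 0.01 and 2-fold), given as D21 difference minus NP difference on the log2 scale. The values were 3.47 for the Sox9 start-codon probe, 2.28 for the Sox9 CAG probe, 1.52 for the downstream and 2.67 for the upstream Grhl2 probe, and 2.61 for Ehf. For the Sox9 start-codon probe the call held without each rat in turn and with slide as a block (3.91), under which its adjusted p went from 0.0127 to 0.0942. With normexp it was 1.40 and not called. Nor were the Sox9 CAG probe (1.39), downstream Grhl2 (1.21) and upstream Grhl2 (0.49) called with normexp, while Ehf kept its call (2.29). The NP whole signals of the Sox9 start-codon probe and of upstream Grhl2 were not well above background, so that both values rest on upper limits there. With slide as a block the other 4 lost their calls, at 2.75 (Sox9 CAG probe), 1.88 and 2.65 (Grhl2) and 2.57 (Ehf). D21 depleted rat 1 drops out of that fit, which ties the D21 whole arrays to the other slides only through NP whole rat 10. Downstream Grhl2 lost its call without NP depleted rat 6 (1.40), NP whole rat 8 (1.31) or 10 (1.38), or D21 whole rat 7 (1.44). The Sox9 CAG probe lost it without NP depleted rat 6 or 7, D21 depleted rat 4, NP whole rat 8 or 10, or D21 whole rat 6 or 7, at 1.93 to 2.23. Ehf kept it only without NP depleted rat 6 or D21 depleted rat 4, and ranged from 1.97 to 3.4 on leaving out single rats.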

How the results depend on the processing

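Of 1595 values of the members recomputed under the alternatives, not counting values within a slide or scan day, 1409 kept their direction and side of the threshold and 38 changed sign, 0 of them among the 28 calls. Of the 28 calls 10 were kept under every alternative other than the methods' t-test. No paired analysis was possible because the groups compared hold different rats and share no rat number that ties animals together. Taking the percentile over detected probes moved the median of all probes by up to 0.188 on the log2 scale. The cause of the changes below was not tested.

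Signs changed for the following. For Tp63 the variant 1 probe's interaction (0.17) ran from -0.18 to 0.45 on leaving out single rats. The variant 3 probe at D21 (0.64) became -0.11 with scan day as a block, its NP difference (0.29) -0.82 with scan day or -0.68 with slide as a block, and -0.18 to 0.72 without single rats, and its interaction (0.35) -0.23 to 0.84. Bcl11b between depleted groups (-0.45) was 0.06 with normexp. Upstream Ovol1 between whole groups (-0.26) was 0.11 with normexp and -0.81 to 0.14 without single rats, and its interaction (0.41) was -0.40 with slide as a block and -0.14 to 0.84. Grhl3 between whole groups (-0.29) ran from -0.99 to 0.23, and its interaction (0.26) was -0.92 with slide as a block and -0.44 to 0.82. Downstream Grhl2 between depleted groups (0.04) was -0.13 with normexp, -0.02 with quantile normalization, -0.12 with the percentile over detected probes, -0.04 with either block and -0.06 to 0.16 without single rats. Upstream Grhl2 at D21 (0.80) was -0.15 with normexp. The second Klf5 probe between depleted groups (-0.16) ran from -0.42 to 0.33. The Sox9 CAG probe at D21 (-0.28) was 0.12 with scan day or 0.48 with slide as a block, and -0.63 to 0.04 without single rats, and the start-codon probe between depleted groups (0.17) was -0.06 with either block and -0.06 to 0.51. Within a slide or scan day, signs of uncalled differences also changed. Between depleted groups they were 0.13 for Tp63 (variant 1), 0.17 for Bcl11b, 0.17 for the second Klf5 probe and -0.61 for the Sox9 start-codon probe on the slide of D21 rat 2, and 0.43 for Ehf, 0.62 for upstream Ovol1, -0.12 for downstream Grhl2 and -0.28 for the Sox9 CAG probe on that of D21 rat 4. On the day of D21 rat 4 the D21 differences between whole and depleted cervix were -0.12 for Ehf, -0.53 for upstream Grhl2, -0.35 for Tp63 (variant 3) and 0.42 for the Sox9 CAG probe, and the NP difference of Tp63 (variant 3) was -0.58, or -0.44 within the slide.

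Counts of member probes called moved as follows. The 5 higher at D21 in whole cervix became 3 at an adjusted p below 0.05, with normexp, with no filter, with 1 probe per gene and with slide as a block, 2 with the filter on every array, 0 by the methods' t-test after adjustment, and 3 to 6 without single rats, where 0 to 1 were lower. The 8 lower in whole than depleted cervix at D21 became 5 by the methods' t-test and with the percentile over detected probes, 0 by that t-test after adjustment, 2 with normexp, 3 with slide or scan day as a block and 5 to 8 without single rats, and those higher (0) became 1 with normexp and 0 to 2 without single rats. The 10 lower in NP rats became 4 by the methods' t-test (Bcl11b, downstream Grhl2 and Sox9 by both probes), 1 after its adjustment, 6 with the filter on every array and 10 to 11 without single rats. Between depleted groups 0 to 1 were lower without single rats. The 5 interactions above 0 became 1 at an adjusted p below 0.05, with normexp and with slide as a block, 2 with the filter on every array, 3 with 1 probe per gene and 2 to 5 without single rats, where 0 to 1 were below 0.

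Over the 14 lists, the 28 genes higher at D21 in whole cervix became 12 by the methods' t-test, 0 after its adjustment, 15 with slide as a block and 18 to 31 without single rats, and the 7 lower became 4, 0, 2 and 4 to 8, with 4 under normexp. At D21 the 25 higher in whole than depleted cervix became 11 by the t-test, 0 after its adjustment and 15 with slide as a block, and the 25 lower became 1 after its adjustment. In NP rats the 36 higher became 19 after its adjustment, and the 39 lower became 15 by the t-test and 9 after adjustment. Between depleted groups the 33 higher became 7 and 0, and the 2 lower became 1 at an adjusted p below 0.05 and with the arrays compared only, 0 by the t-test with or without adjustment, and 1 to 4 without single rats. The 8 interactions above 0 became 2 at an adjusted p below 0.05, 5 with normexp, 14 with quantile normalization, 4 with slide as a block and 6 to 13 without single rats.

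Over all probes, 901 were higher and 459 lower at D21 in whole cervix, against 359 and 215 by the methods' t-test, 484 and 138 with normexp, 589 higher with the filter on every array, 510 higher with slide as a block and 715 lower with the arrays compared only. At D21 1788 were higher and 1186 lower in whole than depleted cervix, against 463 and 276 by the t-test, 674 and 459 with normexp, 967 and 684 with scan day or 369 and 212 with slide as a block, and 2148 and 778 with the percentile over detected probes. In NP rats 2042 and 1584 became 959 and 629 by the t-test, 1338 and 947 with normexp and, higher, 1049 with the filter on every array. Between depleted groups 800 and 322 became 506 and 134 at an adjusted p below 0.05 and 175 and 47 by the t-test, and the 322 became 186 with normexp, 179 with the arrays compared only, and 169 with slide or 189 with scan day as a block. The interaction's 454 and 780 became 85 and 303 at an adjusted p below 0.05, 198 and 398 with normexp and 177 above 0 with slide as a block. After adjustment the methods' t-test called 0 of all probes between whole groups and 0 between depleted groups, so its counts of members and listed genes there were fixed.

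Beside those given above for Grhl3 and Ehf, calls gained without a single rat were upstream Grhl2 at D21 (1.46, adjusted p = 0.00277 by limma) without D21 depleted rat 4, and, without NP whole rat 9, downstream Ovol1 between whole groups (-1.45, adjusted p = 0.0483) and the interactions of downstream Ovol1 (-2.01) and Klf5 (1.44). The D21 whole and depleted arrays left without D21 depleted rat 4 shared no scan day. For upstream Grhl2 the depleted values then left were -4.08 in rat 1 and -4.68 in rat 2, the second not well above background.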
